A study of Mus musculus with 6 samples.

Results

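The 35 genes described here are 24 components of the Hippo pathway and 11 target genes of Yap, chosen by their gene symbols from the 23420 symbols of the count table. They were measured in eEnd2 cells, a mouse embryonic endothelial line, that stably carried a chimera of human Integrin-β1A and eGFP, either wildtype (β1-WT-GFP) or with glutamine in place of the acetylatable lysine of the cytoplasmic tail (β1-K794Q-GFP), a change that mimics acetylation. Total RNA of 3 cultures of each kind, named A, B and C, was sequenced after removal of ribosomal RNA. All cultures were untreated and kept in the same serum-containing medium, and by design the groups differed in the residue of the chimera. By the study's methods the sorted cells had been grown to confluence when their RNA was extracted. In both groups a small piece of the human β-actin promoter next to a matrix attachment region drove the chimera, the endogenous mouse Integrin-β1 was still present, and the cells were populations sorted for GFP, not single clones. The labels do not say from which sorted population, of low or of high GFP, each culture came, nor whether the cultures were separate transfections, and the p-values therefore measure the spread between these cultures. The study's methods name 3 cultures of the sorted cells of each kind. The residue and the history of those sorted cells therefore cannot be told apart. The study asked whether the acetylation mimetic changes the output of Hippo-Yap signalling.

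In the Hippo pathway the kinases Mst1 and Mst2, encoded by Stk4 and Stk3, act with the adapter Sav1 to activate the kinases Lats1 and Lats2 and their Mob1 cofactors. The Lats kinases phosphorylate Yap and its paralog Taz, encoded by Wwtr1, and keep them out of the nucleus. When the pathway is quiet, Yap and Taz enter the nucleus and bind the Tead transcription factors, and together they raise genes such as Cyr61, Ctgf and Ankrd1. Dense cell contacts favour the inhibited state, and spreading on a stiff matrix favours the active one. Since Yap and Taz are governed mainly by phosphorylation and location, transcript levels of the pathway genes do not measure their activity. In endothelium, Yap and Taz are known for roles in vessel growth and in junction remodelling.

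The sequence that Tead factors are known to prefer holds the core GGAATG, or CATTCC when read on the other strand. This motif of 6 bases was looked for in the 250 bases before each transcription start in RefSeq (GRCm38.p6), on both strands, and no other motif was searched. Of the 35 genes, 27 had such a window, and 14 of these (51.9%) held the motif at 1 or more starts, against 14.4% of the 27025 genes with a window and 12.6% of all 32851 windows. Among the target genes the motif was found in Cyr61, Ankrd1, Crim1 and Axl, 4 of 6 with a window (66.7%), but not in Myof or Rbms3. Among the components it was found in 10 of 21 (47.6%), namely Yap1, Wwtr1, Tead3, Sav1, Mob1a, Wwc2, Amotl2, Ptpn14, Vgll3 and Vgll4. The remaining components with a window, Tead2, Stk4, Lats1, Lats2, Mob1b, Nf2, Wwc1, Taok1, Frmd6, Amot and Amotl1, held no match. For Ctgf, Asap1, Arhgef17, Ccdc80, Dock5, Tead1, Tead4 and Stk3 the promoter set used here held no window under their symbols. Their promoters were therefore not searched, and the shares cover only the genes in that set. A match is a description of the letters and not evidence of binding.

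Sequences are shown for 6 genes that hold the motif and whose levels enter the comparisons that follow. Cyr61, Ankrd1, Crim1, Amotl2 and Wwc2 stood highest in β1-WT-GFP culture C, and Axl differed between the groups. Myof and Frmd6 were also at least 2-fold higher in that culture than in A and B of its group. Their windows held no match and are not shown, so the choice of genes does not link the motif with level. Such a link was not tested. Each runs 5′ to 3′ on the strand of its gene, and the capitals mark GGAATG or CATTCC. Bases that GENCODE M21 places in an untranslated region were left out, so that of Ankrd1 and Amotl2 only the motif with 10 bases on each side is given.
Cyr61 (chr3:145649986-145650235, - strand): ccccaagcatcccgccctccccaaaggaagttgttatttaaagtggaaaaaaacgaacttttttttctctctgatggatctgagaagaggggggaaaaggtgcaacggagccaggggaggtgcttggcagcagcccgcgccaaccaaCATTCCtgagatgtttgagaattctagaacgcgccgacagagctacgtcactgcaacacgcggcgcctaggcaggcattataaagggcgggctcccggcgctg
Ankrd1 (chr19:36120039-36120064, - strand): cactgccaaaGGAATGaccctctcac
Ankrd1 (chr19:36119952-36119977, - strand): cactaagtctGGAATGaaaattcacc
Crim1 (chr17:78199998-78200247, + strand): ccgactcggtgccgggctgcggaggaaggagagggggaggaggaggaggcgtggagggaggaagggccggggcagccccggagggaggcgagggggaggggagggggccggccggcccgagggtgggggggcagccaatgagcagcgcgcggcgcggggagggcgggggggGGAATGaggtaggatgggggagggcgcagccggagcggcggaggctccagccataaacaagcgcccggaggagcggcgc
Axl (chr7:25788734-25788983, - strand): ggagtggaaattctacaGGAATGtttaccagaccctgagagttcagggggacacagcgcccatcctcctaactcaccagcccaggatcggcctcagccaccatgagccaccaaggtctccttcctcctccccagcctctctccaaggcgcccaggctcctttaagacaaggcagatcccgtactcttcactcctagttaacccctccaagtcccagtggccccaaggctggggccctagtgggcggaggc
Amotl2 (chr9:102717729-102717754, + strand): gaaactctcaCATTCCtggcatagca
Wwc2 (chr8:47990552-47990794, - strand): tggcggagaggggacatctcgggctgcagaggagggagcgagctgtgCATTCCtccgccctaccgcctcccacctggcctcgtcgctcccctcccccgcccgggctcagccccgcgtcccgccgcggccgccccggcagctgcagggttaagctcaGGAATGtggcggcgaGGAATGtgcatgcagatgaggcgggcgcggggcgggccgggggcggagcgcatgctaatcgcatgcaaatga
In Cyr61 the motif lies 103 bases before the start and on the opposite strand, and in Crim1 it lies 79 bases before it. Ankrd1 has a pair of matches, 210 and 123 bases before its start, and both lie in the untranslated exon of a longer GENCODE transcript. Axl has a match far from the start, at 233 bases. Wwc2 held 3 matches, at 203, 94 and 79 bases, the largest number among the windows of these genes. The map of motif positions shows no common distance to the start.

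**Figure D1:**
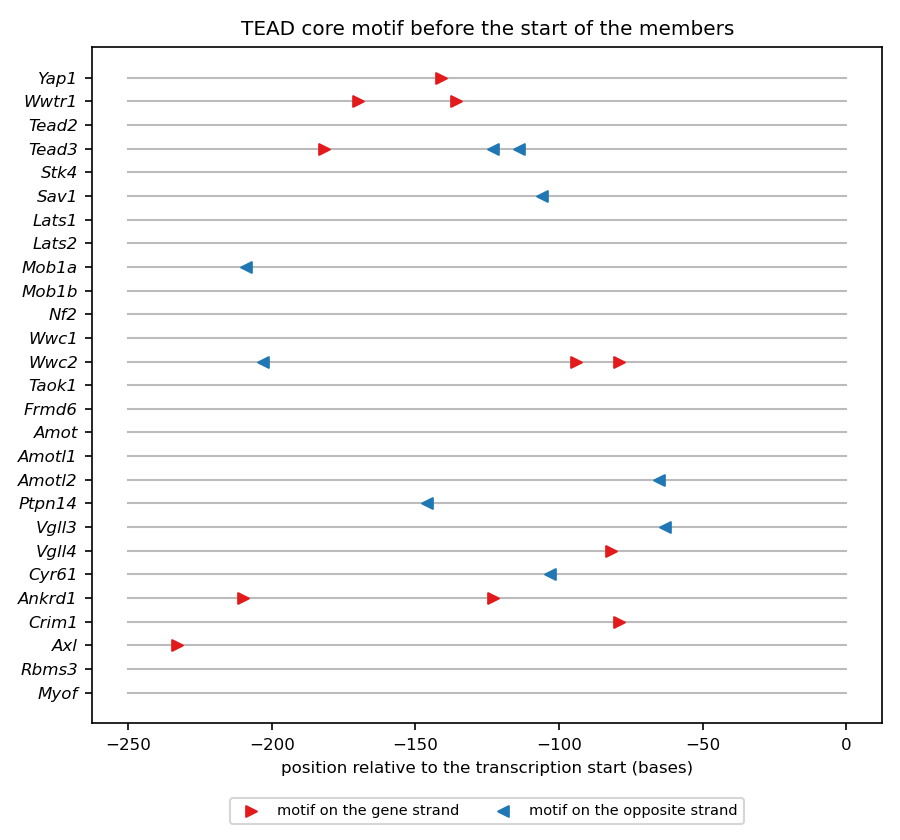
Position of the motif GGAATG relative to the RefSeq transcription start (in bases, 0 is the start) in the 27 genes with a promoter window of 250 bases. Red triangles mark the motif on the strand of the gene and blue triangles on the opposite strand, and lines without a triangle are genes with no match; the pair of triangles of Wwtr1 is the same site seen from both of its starts, and matches lie between 63 (Vgll3) and 233 (Axl) bases before a start.

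The libraries held between 9589826 and 15287191 counts. Levels are given as normalized counts (CPM, library-scaled counts after TMM normalization), and a count of 0 allows up to 3 counts, which stand for 0.209 to 0.3 CPM and cover counting error only. All 12 endothelial markers were tested and 0 of them passed the thresholds, with a summed level between 6932 CPM and 13154 CPM per culture. Single markers differed within that sum. Cldn5 had 267, 252 and 4.74 CPM in A, B and C of the β1-WT-GFP cells and 17.5, 0 and 24.3 CPM in those of the β1-K794Q-GFP cells. Tek, Tie1, Erg, Esam and Robo4 were also lower in β1-WT-GFP culture C than in A and B of its group. Cdh5, Kdr, Flt1, Emcn and Eng were higher there, and Pecam1 lay between. The 9 markers of mesenchyme, of which 2 were tested and 1 (Prrx1) passed the thresholds, summed to 84.3 CPM to 195 CPM in β1-WT-GFP cells and to 2.58 CPM to 3.75 CPM in β1-K794Q-GFP cells, most of the former being Prrx1, while Dcn, Lum and Twist1 were at 0 in every culture. In β1-WT-GFP culture C, the culture in which several Yap targets stood high, Prrx1 was the lowest of its group (56.5 CPM against 183 CPM and 194 CPM), whereas Pdgfra (16.4 CPM), Col1a1 (5.92 CPM), Col3a1 (3.06 CPM) and Pdgfrb (2.3 CPM) were at their highest of all 6 cultures, with at most 0.7 CPM in cultures A and B of that group. Col1a2 was at 0 in every β1-WT-GFP culture and highest in β1-K794Q-GFP culture B (3.16 CPM). Smooth muscle markers summed to at most 3.34 CPM, that value in β1-WT-GFP culture C, and epithelial markers to at most 0.0696 CPM. Of 5 blood markers, Cd68 made nearly all of the summed level, with 31 CPM to 103 CPM. The part of these levels in the results was not tested. In such bulk RNA fewer cells that express a gene and less RNA per cell cannot be told apart.

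Across the pathway the components were nearly level between the groups, and the changes among the target genes went in both directions. Of the 24 components 22 passed the filter on low counts, and 1, Tead2, passed both thresholds of the study (2-fold or more, with an unadjusted p no larger than 0.05 in the quasi-likelihood test of edgeR), being lower in β1-K794Q-GFP cells. The 11 target genes are a part of the study's set of Yap target genes, whose other members are named further on. All 11 were tested and 2 passed both thresholds, Arhgef17 as higher and Axl as lower. Of all 11608 genes tested 5.19% passed them, a share close to 1 of 22 components, and the count of 2 of 11 target genes holds 1 gene, Arhgef17, whose groups overlapped. After Benjamini-Hochberg adjustment over all genes 0 of the 33 tested genes reached an adjusted p of 0.05, against 0.181% of all genes. The smallest adjusted p was 0.207, and 4 of the 33 had an unadjusted p under 0.05, as did 10.2% of all tested genes. The median log2 fold change (β1-K794Q-GFP over β1-WT-GFP) was -0.04 for the components and -0.37 for the target genes, beside -0.02 for all tested genes. In 5 of the 33 genes the cultures of the groups did not overlap, which held for 16.6% of all tested genes. These were Stk3 and Taok1, higher in each β1-K794Q-GFP culture, and Tead1, Tead2 and Axl, lower in each.

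**Figure D2:**
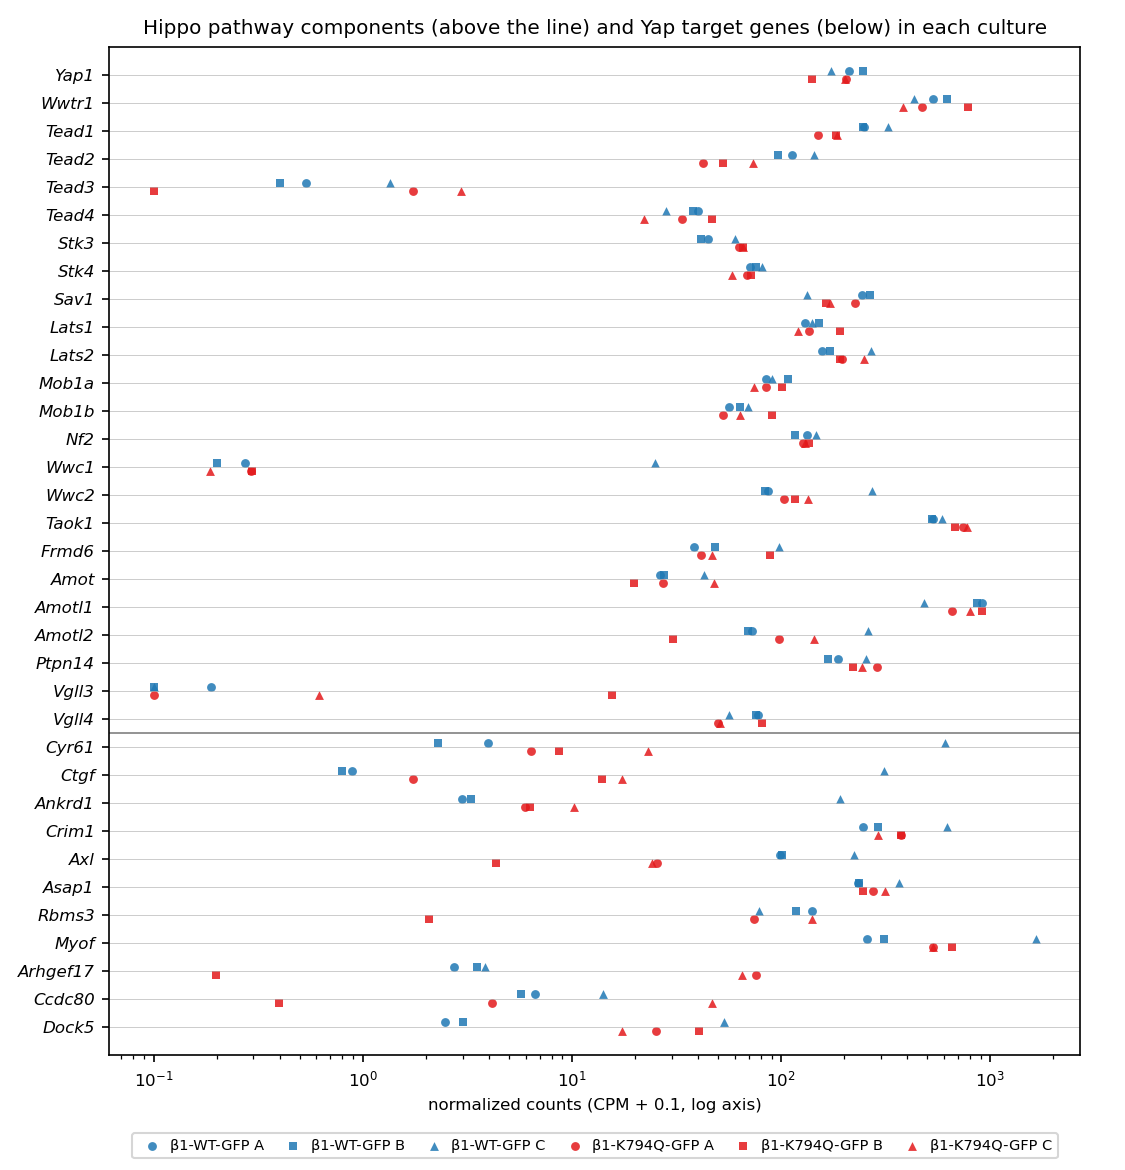
Normalized counts (CPM plus 0.1, log axis) of all 35 genes in each culture, with components above the grey line and target genes below it. Blue symbols are β1-WT-GFP and red symbols β1-K794Q-GFP cultures, with circles, squares and triangles for A, B and C; most components stay within a narrow band, while in Cyr61, Ctgf and Ankrd1 the blue triangle at 610, 309 and 192 stands far to the right of all other symbols.

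Yap1 and Wwtr1, the transcriptional coactivators that the pathway restrains, did not pass the thresholds. Yap1 (chromosome 9, 7931999 to 8004596 in GRCm38) had 212, 246 and 173 CPM in A, B and C of the β1-WT-GFP cells and 205, 141 and 201 CPM in those of the β1-K794Q-GFP cells. The groups overlapped, with a log2 fold change of -0.20 ± 0.23 (SE). For Wwtr1 (chromosome 3, 57455649 to 57575910) the levels were 535, 624 and 433 CPM in β1-WT-GFP and 474, 785 and 381 CPM in β1-K794Q-GFP cells, in the same order of cultures. Its highest and its lowest culture were both β1-K794Q-GFP cultures, and the log2 fold change was 0.04 ± 0.33 (SE). In edgeR the adjusted p was 0.863 for Yap1 and 0.98 for Wwtr1. Per kb of exons Wwtr1 was the more abundant transcript in every culture. It made 82.9% to 83.1% of the summed level of both genes per kb in β1-WT-GFP cells and 78.6% to 91.5% in β1-K794Q-GFP cells. The summed level per kb was 134 ± 24 in β1-WT-GFP and 134 ± 40.6 in β1-K794Q-GFP cells (SD, n = 3 each).

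The Tead genes encode the factors that carry Yap and Taz to DNA, and 2 of the 4, Tead1 and Tead2, were lower in every β1-K794Q-GFP culture, which held for 8.12% of all tested genes. Tead2 (chromosome 7, 45215753 to 45233644) had 113, 96.8 and 143 CPM in A, B and C of the β1-WT-GFP cells and 42.2, 52.7 and 73.6 CPM in those of the β1-K794Q-GFP cells. The groups did not overlap, and the highest β1-K794Q-GFP culture was C. The log2 fold change of Tead2 was -1.07 ± 0.27 (SE, adjusted p = 0.218 in edgeR), past both thresholds. This call was at its border: Tead2 had a log2 fold change of -0.90 without β1-K794Q-GFP culture A and of -0.89 without β1-WT-GFP culture C, both short of a fold of 2, and it passed in 4 of 6 fits with a culture dropped. It was not called either with the level of neighbouring genes in the offset (-0.971), or with β1-WT-GFP culture C and β1-K794Q-GFP culture B both left out (-0.843). Tead1 (chromosome 7, 112679318 to 112906807) had 248, 247 and 323 CPM in β1-WT-GFP and 150, 183 and 186 CPM in β1-K794Q-GFP cells. Here too the groups did not overlap, but the log2 fold change of -0.66 ± 0.20 (SE, adjusted p = 0.305 in edgeR) was under a fold of 2.
Tead4 lay at 40.0, 37.9 and 28.1 CPM in β1-WT-GFP and at 33.4, 46.8 and 21.9 CPM in β1-K794Q-GFP cells, with overlapping groups and a log2 fold change of -0.05 ± 0.31 (SE). Tead3 was rare, at most 1.25 CPM in β1-WT-GFP and 2.84 CPM in β1-K794Q-GFP cells, and had 0 counts in β1-K794Q-GFP culture B. Its log2 fold change was 1.13 ± 1.23 (SE). Per kb of exons Tead1 and Tead2 were close to each other in both groups, at 20.1 ± 3.19 and 24.6 ± 4.84 in β1-WT-GFP and at 12.7 ± 1.45 and 11.7 ± 3.34 in β1-K794Q-GFP cells (SD, n = 3 each). Tead2 was the higher in each β1-WT-GFP culture, with 23.7, 20.2 and 29.8 against 18.3, 18.2 and 23.8 for Tead1. In β1-K794Q-GFP cells the order varied, with Tead1 higher in cultures A and B and Tead2 higher in C. Tead4 had 9.81 ± 1.77 per kb in β1-WT-GFP cells, below both, and 9.46 ± 3.46 in β1-K794Q-GFP cells, within the spread of Tead2. Summed over the 4 genes the level per kb was 49.0 to 61.5 in β1-WT-GFP and 29.4 to 37.5 in β1-K794Q-GFP cells. The share of Tead2 in that sum was 41.3% to 48.4% in β1-WT-GFP and 29.4% to 43.2% in β1-K794Q-GFP cells.

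**Figure D3:**
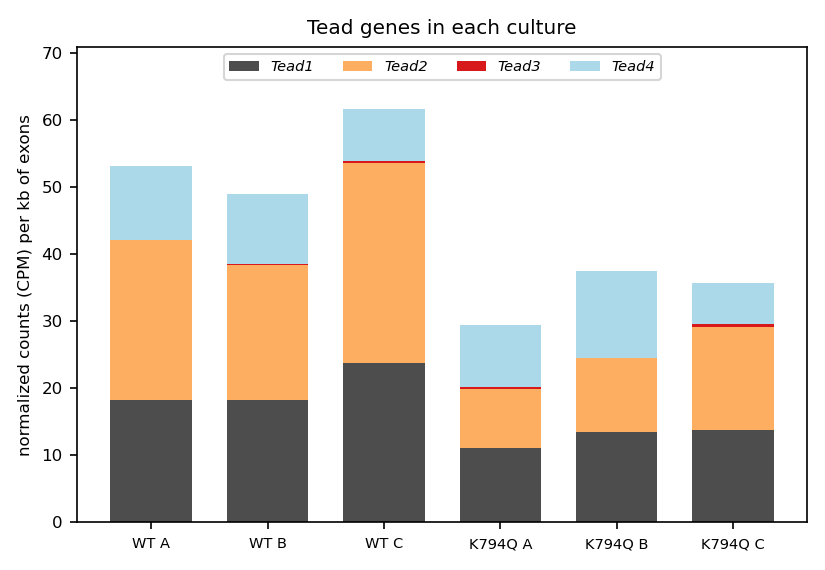
Levels of Tead1, Tead2, Tead3 and Tead4 in each culture as normalized counts (CPM) per kb of exons, stacked to their sum. The 3 β1-WT-GFP bars reach 49.0 to 61.5 and the 3 β1-K794Q-GFP bars 29.4 to 37.5, with less Tead1 (grey) and Tead2 (orange) in each of the latter.

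The kinase core did not pass the thresholds in any of its 7 genes, and their log2 fold changes lay between -0.20 and 0.42. Stk3, which encodes Mst2, had 44.4, 41.2 and 60 CPM in β1-WT-GFP and 63.0, 65.7 and 65.9 CPM in β1-K794Q-GFP cells. Every β1-K794Q-GFP culture lay above every β1-WT-GFP culture, with a log2 fold change of 0.42 ± 0.19 (SE, adjusted p = 0.541 in edgeR), and 0.61 without β1-WT-GFP culture C. Its paralog Stk4 overlapped between the groups, at 71.2, 75.6 and 80.8 CPM against 68.7, 71.5 and 58.1 CPM. Per kb Stk3 made 34.3% to 41.6% of the sum of both Mst genes in β1-WT-GFP and 46.7% to 52.1% in β1-K794Q-GFP cells, without overlap, while the sum itself was 20.9 ± 2.35 and 21.9 ± 1.13 per kb (SD, n = 3 each).
Lats1 and Lats2, the kinases that phosphorylate Yap, had log2 fold changes of 0.08 ± 0.22 (SE) and 0.10 ± 0.26 (SE). Lats2 was highest in culture C of both groups, at 268 CPM in β1-WT-GFP and 250 CPM in β1-K794Q-GFP cells, where cultures A and B had 156 and 171 CPM and 195 and 192 CPM. Lats2 is itself a known Yap target. The scaffold Sav1 had 244, 267 and 133 CPM in β1-WT-GFP and 225, 164 and 171 CPM in β1-K794Q-GFP cells, so that β1-WT-GFP culture C was the lowest of all 6. Mob1a and Mob1b, the coactivators of the Lats kinases, had log2 fold changes of -0.12 and 0.13, within the spread of the cultures.

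Of the 5 upstream scaffolds and kinases 4 were tested and 0 were called, with log2 fold changes between -0.32 and 0.40. Nf2, also called Merlin, which brings the Lats kinases to the membrane, had 133, 117 and 147 CPM in β1-WT-GFP and 127, 136 and 130 CPM in β1-K794Q-GFP cells, a log2 fold change of -0.02 ± 0.16 (SE). The 24 genes around Nf2 on chromosome 11 had a median level that was higher by 0.59 on the log2 scale in β1-K794Q-GFP cells, averaged over cultures. With the neighbouring level in the offset the log2 fold change of Nf2 was -0.60, which was not called. Taok1, a kinase that can activate the Mst kinases, had 534, 529 and 590 CPM in β1-WT-GFP and 740, 676 and 773 CPM in β1-K794Q-GFP cells. The groups did not overlap, with a log2 fold change of 0.40 ± 0.20 (SE, adjusted p = 0.577 in edgeR). Its own neighbours on chromosome 11 were higher by 0.37 on the log2 scale, and with their level in the offset the log2 fold change of Taok1 was 0.035.
Wwc1 and Wwc2 encode Kibra and its paralog, scaffolds that work with Nf2. Wwc2 had 86.4, 83.4 and 273 CPM in β1-WT-GFP and 103, 117 and 134 CPM in β1-K794Q-GFP cells. The β1-K794Q-GFP cultures lay above cultures A and B of the β1-WT-GFP cells and below culture C, and the log2 fold change was -0.32 with all cultures and 0.49 without β1-WT-GFP culture C. Wwc1 was found in β1-WT-GFP culture C with 356 counts (24.8 CPM) and had at most 2 counts in each of the other 5 cultures. It did not pass the filter and was not tested. Frmd6, the mammalian relative of Expanded, had 38.2, 48.0 and 97.3 CPM in β1-WT-GFP and 41.4, 88.8 and 46.4 CPM in β1-K794Q-GFP cells, with 1 high culture in each group.

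Proteins that hold Yap outside the nucleus or compete for Tead were likewise not called. Amotl1, a junctional angiomotin, was the most abundant of its family per kb in every culture, with 913, 868 and 482 CPM in β1-WT-GFP and 654, 912 and 796 CPM in β1-K794Q-GFP cells. Amotl2, which is both an inhibitor and a known target of Yap, had 72.4, 69.2 and 261 CPM in β1-WT-GFP and 97.9, 30.4 and 143 CPM in β1-K794Q-GFP cells. In β1-WT-GFP culture C Amotl2 was thus highest and Amotl1 lowest. Amotl2 made 43.9% of the angiomotin level per kb in that culture, 10.9% in each of the others of its group, and 4.94% to 21.2% in β1-K794Q-GFP cells. The sum of the 3 genes per kb was 100 ± 5.52 in β1-WT-GFP and 96.4 ± 12 in β1-K794Q-GFP cells (SD, n = 3 each). Log2 fold changes were -0.02 for Amot, 0.06 for Amotl1 and -0.57 ± 0.73 (SE) for Amotl2.
The phosphatase Ptpn14, which binds Yap, had 187, 167 and 254 CPM against 287, 221 and 243 CPM, a log2 fold change of 0.30 ± 0.23 (SE). Vgll4, a competitor of Yap for Tead, had a log2 fold change of -0.20 ± 0.26 (SE). Vgll3, another Tead cofactor, had 157 counts (15.5 CPM) in β1-K794Q-GFP culture B, 6 counts in culture C and at most 1 count in each of the other 4 cultures. It was not tested.

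The best known readouts of Yap, the matricellular genes Cyr61 and Ctgf and the ankyrin repeat gene Ankrd1, were set by a single culture. Cyr61 (chromosome 3, 145646976 to 145649981), whose window is shown above, had 3.85, 2.20 and 610 CPM in A, B and C of the β1-WT-GFP cells and 6.26, 8.59 and 22.9 CPM in those of the β1-K794Q-GFP cells. Ctgf (chromosome 10, 24595442 to 24598683) had 0.787, 0.7 and 309 CPM in β1-WT-GFP and 1.64, 13.9 and 17.2 CPM in β1-K794Q-GFP cells. Ankrd1 (chromosome 19, 36111961 to 36120099) had 2.89, 3.20 and 192 CPM in β1-WT-GFP and 5.87, 6.22 and 10.1 CPM in β1-K794Q-GFP cells. In all 3 genes β1-WT-GFP culture C was far above every other culture, cultures A and B of the same group were the lowest of the 6, and the β1-K794Q-GFP cultures lay between. Of the 9 mesenchymal markers Pdgfra, Pdgfrb, Col1a1 and Col3a1 were also highest in that culture, as given above. Prrx1, the most abundant of them, was lower there than in A and B, and Col1a2, Dcn, Lum and Twist1 were at 0. The part of these markers in the levels of Cyr61, Ctgf and Ankrd1 was not tested. Culture C of the β1-WT-GFP cells was 202-fold above the mean of A and B for Cyr61, 416-fold for Ctgf and 63.2-fold for Ankrd1. The ratio of Ctgf rests on only 9 and 7 counts in A and B. Compared with the highest β1-K794Q-GFP culture it was 26.7-fold, 18-fold and 19.1-fold higher. With such spread the log2 fold changes of -4.03 ± 2.09 (SE), -3.24 ± 2.20 (SE) and -3.16 ± 1.64 (SE) did not pass the thresholds, and their adjusted p values in edgeR were 0.616, 0.726 and 0.615. Without β1-WT-GFP culture C they were 2.06, 3.86 and 1.29, as given further on. Leaving out another culture called Cyr61 in 1 of 5 fits, without β1-WT-GFP culture B, and Ankrd1 in 2, without β1-WT-GFP culture A or B.

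Myof and Dock5 followed the same culture with smaller ratios. Myof, a membrane repair protein, had 258, 311 and 1653 CPM in β1-WT-GFP and 531, 655 and 532 CPM in β1-K794Q-GFP cells. Dock5, an exchange factor for Rac, had 2.36, 2.90 and 53.3 CPM in β1-WT-GFP and 25, 40.3 and 17.2 CPM in β1-K794Q-GFP cells. Again every β1-K794Q-GFP culture lay between β1-WT-GFP culture C and cultures A and B of the β1-WT-GFP cells. The log2 fold changes were -0.37 ± 0.73 (SE) and 0.49 ± 1.18 (SE), neither of them called. Crim1, a transmembrane regulator of BMP signals, had 245, 291 and 619 CPM in β1-WT-GFP and 376, 376 and 289 CPM in β1-K794Q-GFP cells, and Asap1, an Arf GTPase activator, 232, 235 and 366 CPM and 274, 247 and 315 CPM. Both were highest in β1-WT-GFP culture C and overlapped between the groups, with log2 fold changes of -0.15 and 0.00.

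Axl, a receptor tyrosine kinase for Gas6, was the 1 target gene whose groups did not overlap. Axl (chromosome 7, 25757273 to 25788705) had 98.8, 101 and 223 CPM in A, B and C of the β1-WT-GFP cells and 25.4, 4.24 and 24.1 CPM in those of the β1-K794Q-GFP cells. The groups did not overlap, and β1-K794Q-GFP culture B was the lowest by far. The difference (SE 0.72 on the log2 scale) was past both thresholds however a single culture was dropped, with log2 fold changes between -3.31 and -2.46 over the 6 such fits. With β1-WT-GFP culture C and β1-K794Q-GFP culture B both left out it was -1.99 and still called. Over all genes the adjusted p in edgeR was 0.207, so that Axl was not past the adjusted threshold. The direction of Axl was opposite to that of Cyr61, Ctgf and Ankrd1 once that β1-WT-GFP culture, C, was dropped.

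Rbms3, Arhgef17 and Ccdc80 had their lowest level in β1-K794Q-GFP culture B. Arhgef17 (chromosome 7, 100869752 to 100932107), an exchange factor for RhoA, had 2.62, 3.40 and 3.76 CPM in β1-WT-GFP and 75.4, 0.0987 and 64.6 CPM in β1-K794Q-GFP cells. Cultures A and C of the β1-K794Q-GFP cells lay above every β1-WT-GFP culture and culture B below all of them, so that the groups overlapped. Its log2 fold change of 3.83 ± 1.55 (SE, adjusted p = 0.474 in edgeR) passed both thresholds, but of the 6 fits that left out 1 culture it passed in 1, the fit without β1-K794Q-GFP culture B (4.42). Rbms3, an RNA binding protein, had 141, 118 and 78 CPM in β1-WT-GFP and 73.9, 1.97 and 140 CPM in β1-K794Q-GFP cells, a log2 fold change of -0.64 ± 1.13 (SE) that was -0.06 without culture B. Ccdc80, a secreted matrix protein, had 6.56, 5.6 and 14.0 CPM against 4.04, 0.296 and 46.4 CPM. Its log2 fold change of 0.95 ± 1.39 (SE) became -2.0 without β1-K794Q-GFP culture C.

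**Figure D4:**
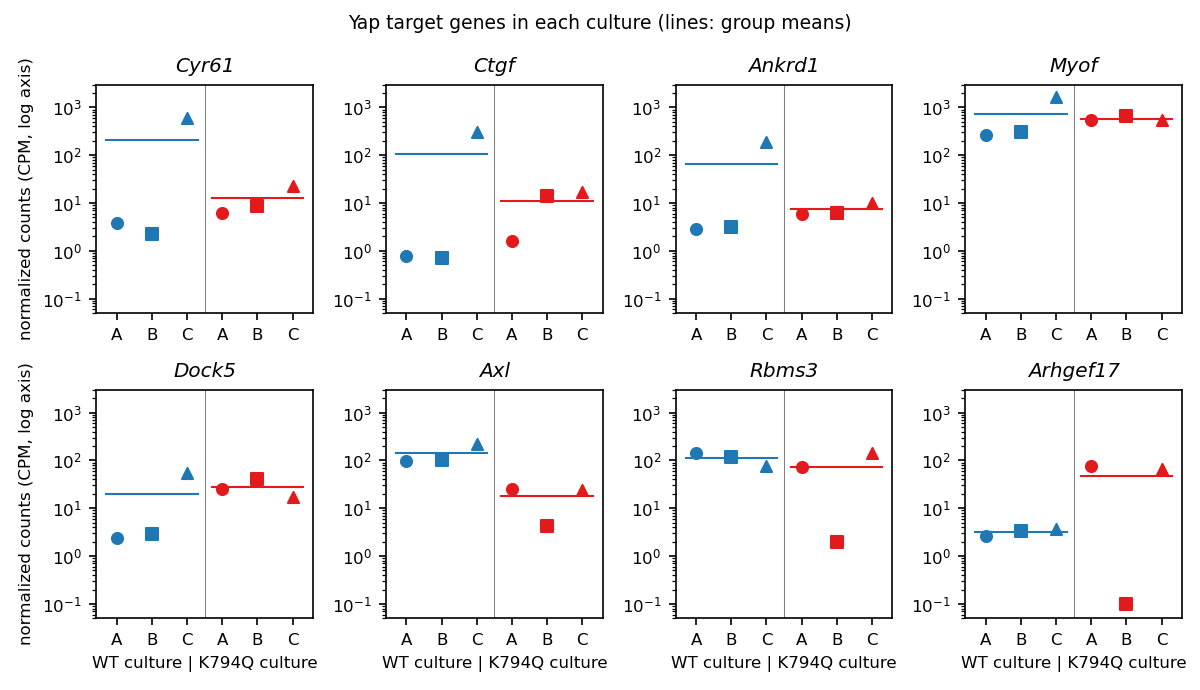
Normalized counts (CPM, log axis) of 8 Yap target genes in each culture, with β1-WT-GFP cultures in blue, β1-K794Q-GFP cultures in red and horizontal lines at the group means. For Cyr61, Ctgf and Ankrd1 the mean of β1-WT-GFP cells (205, 104 and 66.1) is made by culture C, for Axl the groups do not overlap, and in Rbms3 and Arhgef17 β1-K794Q-GFP culture B is the lowest point.

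How far the cultures of a group differed in these genes was read from pairs of cultures, counting a gene when its log CPM (prior count 2) differed at least 2-fold. Comparing A with B in β1-WT-GFP cells, 0 of the 33 tested genes were that far apart, against 1.27% of all tested genes. Between A and C there were 12 of 33 (24.8% of all genes) and between B and C the same 12 (23.5% of all genes). In each of these 12 genes culture C was at least 2-fold above both A and B, a pattern that 10.4% of all tested genes had. They were 8 of the 11 target genes, Cyr61, Ctgf, Ankrd1, Crim1, Axl, Myof, Ccdc80 and Dock5, and 4 of the 22 components, Tead3, Wwc2, Frmd6 and Amotl2. In the opposite direction, at least 2-fold below both, there were 0 of 33, while 10.2% of all genes did so. β1-WT-GFP culture C was the highest of all 6 cultures in 8 of 11 target genes (72.7%), in 8 of 22 components (36.4%) and in 26% of all tested genes.
Among β1-K794Q-GFP cultures A and C were that far apart in 3 of 33 genes (8.8% of all genes), all of them target genes, Cyr61, Ctgf and Ccdc80. Between A and B there were 8 of 33 (18.3% of all genes) and between B and C 11 of 33 (23.3% of all genes). Culture B was at least 2-fold below both A and C in 6 genes, Tead3, Amotl2, Axl, Rbms3, Arhgef17 and Ccdc80, where 8.8% of all tested genes were, and at least 2-fold above both in 0 genes, where 5.03% were. The rule on single cultures was chosen after the levels had been seen.

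Since β1-WT-GFP culture C carried so much of the target genes, the groups were also compared without it. That culture was singled out after these levels had been seen, so the fit describes these genes and is not an independent test of them. In that fit 6 of the 11 target genes and 0 of the 22 components passed both thresholds, against 8.38% of the genes tested. Ctgf was higher in β1-K794Q-GFP cells with a log2 fold change of 3.86 ± 1.12 (SE), Dock5 with 3.39 ± 0.46 (SE), Cyr61 with 2.06 ± 0.70 (SE), Ankrd1 with 1.29 ± 0.38 (SE) and Myof with 1.02 ± 0.21 (SE). Axl was lower, at -2.46 ± 0.71 (SE). For these 6 genes the adjusted p in edgeR ranged between 0.0698 (Dock5) and 0.255 (Cyr61), so that 0 of them passed after adjustment. The median log2 fold change of the target genes was 1.29 in this fit and that of the components 0.08, beside 0.03 for all genes. The 3 genes Cyr61, Ctgf and Ankrd1 thus went from negative to positive log2 fold changes without this culture, as did Myof, while that of Axl stayed negative. The fit rests on 2 β1-WT-GFP cultures, A and B, which were at least 2-fold apart in 1.27% of all tested genes. For the other pairs within a group this share was 8.8% to 24.8%, so the standard errors of this fit rest on an unusually similar pair. Leaving β1-K794Q-GFP culture B out as well also gave 6 called target genes, with Arhgef17 in place of Myof. In that fit 1 component was called, but it was the sparse Tead3, as higher (2.575), and not Tead2.

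**Figure D5:**
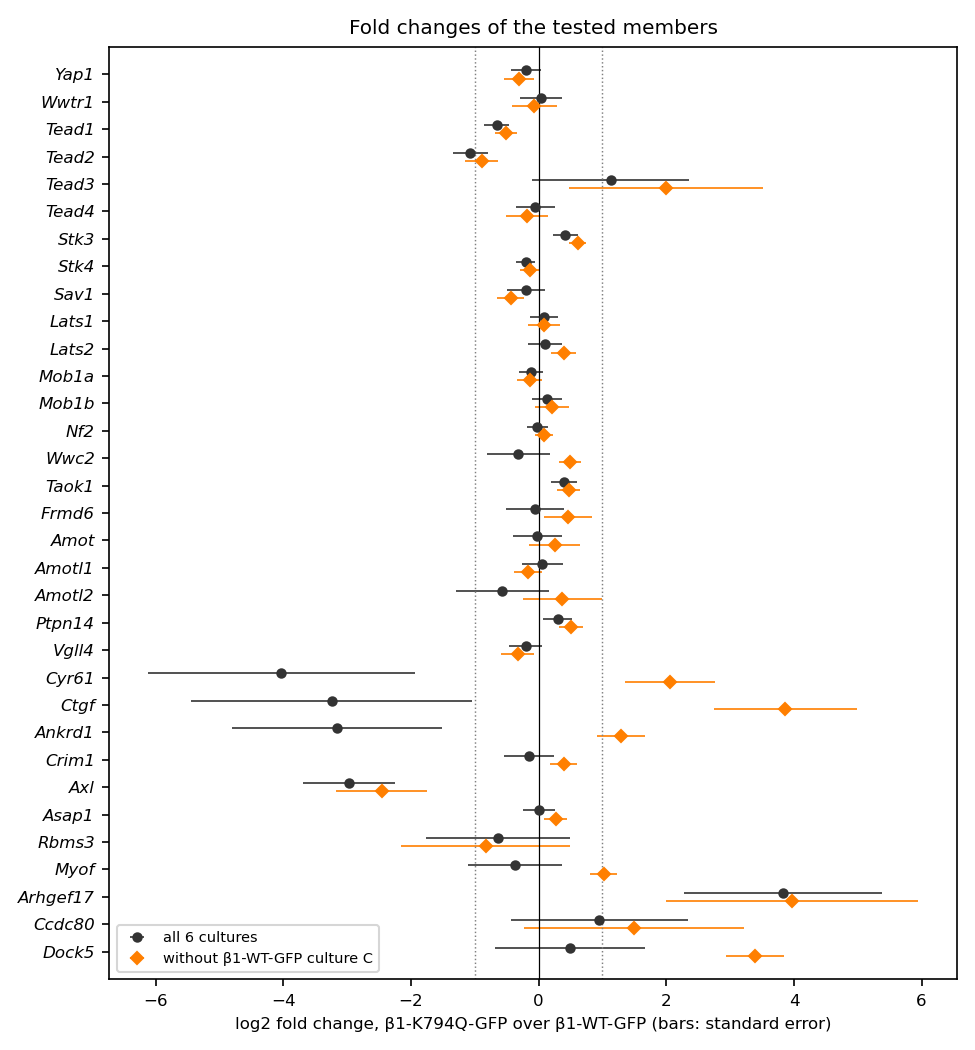
Log2 fold change (β1-K794Q-GFP over β1-WT-GFP) of the 33 tested genes with its standard error as a bar, from all 6 cultures (dark circles) and without β1-WT-GFP culture C (orange diamonds); dotted lines mark a fold of 2. Cyr61, Ctgf and Ankrd1 move from -4.03, -3.24 and -3.16 to 2.06, 3.86 and 1.29, whereas the components other than Tead3 stay between -1.07 and 0.61 and Axl stays lower.

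Other genes of the pathway were taken from lists written from general knowledge. Of these, Gadd45a, Igfbp3 and Tgfb2 are also in the study's own set of Yap target genes. That set holds Amotl2, Lats1 and Ptpn14 as well, which are counted here among the components. None of these genes was called with all cultures or without β1-WT-GFP culture C, so the counts over 11 target genes cover a part of that set. Of 8 further genes of common Yap signatures 3 were tested and 0 passed both thresholds in edgeR's test, and 0 of the 3 had an unadjusted p under 0.05. Gadd45a, a stress response gene, had 10.8, 10.9 and 77.4 CPM in β1-WT-GFP and 8.09, 8.39 and 11.7 CPM in β1-K794Q-GFP cells, with β1-WT-GFP culture C above all others. Tgfb2, a ligand of the TGF-β family, had 4.46, 4.80 and 46.7 CPM in β1-WT-GFP and 15.2, 4.74 and 77.6 CPM in β1-K794Q-GFP cells, and was high in culture C of both groups. Igfbp3, a binding protein of insulin-like growth factors, had 6.39, 8.9 and 22.1 CPM in β1-WT-GFP and 44.9, 0.493 and 20.3 CPM in β1-K794Q-GFP cells, and was highest in culture A and lowest in culture B of the latter. The other 5, F3, Fjx1, Foxf2, Nt5e and Nuak2, had at most 8 counts in any culture. Of 63 further Hippo genes 60 were in the table and 48 were tested. Of these 2 passed both thresholds as higher and 1 as lower, which is 3 of 48 beside the 5.19% of all genes.
Fat1, an atypical cadherin that acts upstream of the pathway, had 0.175, 0.1 and 0.975 CPM in β1-WT-GFP and 6.07, 147 and 19.4 CPM in β1-K794Q-GFP cells. The groups did not overlap, and culture B was the highest, with a log2 fold change of 6.97 ± 1.57 (SE, adjusted p = 0.177 in edgeR). Llgl2, a polarity gene of the Scribble group, had 3.59, 3.70 and 3.69 CPM in β1-WT-GFP and 11.7, 9.28 and 12.4 CPM in β1-K794Q-GFP cells, a difference larger than the spread of either group (log2 fold change 1.60 ± 0.26, SE, adjusted p = 0.0955 in edgeR). Rassf5, a Ras effector that binds the Mst kinases, had 14.3, 18.2 and 29.5 CPM in β1-WT-GFP and 5.78, 7.01 and 10.5 CPM in β1-K794Q-GFP cells, a log2 fold change of -1.41 ± 0.38 (SE, adjusted p = 0.251 in edgeR). None of these 3 genes passed at an adjusted p of 0.05.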

How the data were processed

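Total RNA of 3 cultures per group was sequenced, and the authors deposited raw counts of reads per mouse gene symbol, without normalization. The submitters' processing notes name bcl2fastq 2.20.0, STAR 2.7.4a, HTSeq 0.9.1, edgeR 3.38.4 and the build mm10. Whether counting used strand is not given in the sources used here. For the comparison edgeR 4.0.16 was run in R 4.3.3: filterByExpr left 11608 of 23420 symbols, libraries were scaled with TMM, and groups were compared with glmQLFit and glmQLFTest (two-sided, common dispersion 0.186) over all genes. Calls needed a 2-fold difference and an unadjusted p no larger than 0.05, the thresholds of the study's methods, and Benjamini-Hochberg values stand beside them. The standard error is the log2 fold change divided by the square root of F. The functions were first tested on simulated counts. Exon lengths and positions came from GENCODE M21, matched by symbol (21777 directly, 1260 through a synonym), and the 250 bases before each start from RefSeq (GRCm38.p6). Merged exons of all transcripts gave the length, so levels per kb are approximate. The neighbouring level is the median over the 12 tested genes on each side of their log2 ratio to the β1-WT-GFP mean. All 35 genes are named. Members and lists were chosen with earlier results of these data known. Alternatives were no filter, at least 10 counts in every culture, RLE scaling, DESeq2 1.42.0, the likelihood ratio test, the culture letter as a block, the neighbouring level as offset, and leaving out each culture. Same-lettered cultures of the groups correlated at 0.09, 0.05 and 0.10 in their deviations, so the letters were not taken to pair them. Tables were made in Python 3.11.15.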

Additional observations from a re-analysis of the deposited data

How the results depend on the processing

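Results were recomputed under each alternative, changing 1 choice at a time. Genes past both thresholds numbered 916 with no filter on low counts, where 3 components (Tead2 and the sparse Wwc1 and Vgll3) were called, 1661 with β1-WT-GFP culture C and β1-K794Q-GFP culture B both left out, a fit chosen after seeing the data, and 501 to 992 with each culture left out in turn. Called components numbered 0 with the neighbouring level in the offset, where Tead2 had -0.971, and 0 to 1 with a culture left out. With both cultures left out Tead2 (-0.843) was not called and Tead3 (2.575) was, as higher. Called target genes numbered 1 with at least 10 counts in every culture, where Arhgef17, Ctgf and Ccdc80 could not be tested. They numbered 4 in the likelihood ratio test, 6 with both cultures left out and 1 to 6 with 1 left out. With the culture letter as a replicate block 1 target gene was called, and the log2 fold changes of Wwtr1 (-0.009), Ctgf (0.332), Myof (0.218) and Ccdc80 (-0.683) took the other sign; the cause was not tested. With the neighbouring level in the offset the sign turned for Yap1 (0.019), Tead4 (0.068), Lats1 (-0.023), Lats2 (-0.069), Frmd6 (0.166), Amot (0.021), Crim1 (0.122) and Asap1 (-0.003), and with no filter for Asap1 (-0.009). With both cultures left out it turned for Wwtr1 (-0.423), Lats1 (-0.126), Mob1b (-0.029), Nf2 (0.054), Wwc2 (0.498), Frmd6 (0.042), Amot (0.498), Amotl1 (-0.281), Amotl2 (0.785), Cyr61 (2.275), Ctgf (3.663), Ankrd1 (1.406), Crim1 (0.329) and Myof (0.918). When single cultures were dropped the sign also turned for 19 genes, and their log2 fold changes ranged as follows: Wwtr1 (-0.305 to 0.247), Tead4 (-0.345 to 0.184), Lats1 (-0.133 to 0.212), Lats2 (-0.053 to 0.387), Mob1b (-0.116 to 0.286), Nf2 (-0.1 to 0.076), Wwc2 (-0.607 to 0.489), Frmd6 (-0.481 to 0.459), Amot (-0.456 to 0.246), Amotl1 (-0.167 to 0.218), Amotl2 (-1.063 to 0.37), Cyr61 (-4.789 to 2.063), Ctgf (-3.828 to 3.865), Ankrd1 (-3.726 to 1.289), Crim1 (-0.394 to 0.386), Asap1 (-0.115 to 0.265), Myof (-0.781 to 1.021), Ccdc80 (-2 to 1.527) and Dock5 (-0.038 to 3.392). Axl was called under every alternative listed. The replicate block changed no call but that of Arhgef17 (2.872, not called). Whether cultures of the same letter were handled together is not given by the labels. RLE scaling and DESeq2 changed no call among the 35 genes. Depth limits Wwc1 and Vgll3, which had at most 3 counts in most cultures, and Tead3, which had 0 to 33 counts.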
